A study of Mus musculus with 96 samples.

Results

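The gene set holds 10 genes of lipid droplets and lipolysis, Pnpla2, Lipe, Mgll, G0s2, Abhd5, Plin2, Plin5, Fitm1, Fitm2 and Lpin1, taken by symbol from a table of read counts for 56748 mouse genes. All 10 had a row under that symbol. The counts came from poly-A RNA of liver, muscle and cerebral cortex of mice that either ate freely (AL) or followed intermittent fasting (IF), in which food was withheld for 16 h of every day. The design asks how these tissues answer to 4 months of daily fasting. C57BL/6 male mice on chow that entered the schedules at 6 weeks of age, and whose tissues were taken in the morning after perfusion with chilled buffered saline, are the animals the methods describe; which muscle was dissected is not given in the sources used here. The labels give no strain and name 2 sets: mice 1-16, labelled male, with AL mice 1 to 8 and IF mice 9 to 16, and mice 25-40, labelled female, with AL mice 25 to 32 and IF mice 33 to 40. Age, strain and sampling of mice 25-40 are not stated, so that sex and every other difference between the sets cannot be told apart, and the sets were fitted separately. Libraries with the same mouse number were taken as tissues of the same mouse.

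Neutral fat is stored in lipid droplets, a triglyceride core under a phospholipid monolayer that carries coat proteins. Pnpla2 (adipose triglyceride lipase) removes the first fatty acid from triglyceride, with Abhd5 as its activator and G0s2 as its inhibitor; Lipe (hormone-sensitive lipase) cleaves mainly the diacylglycerol left over, and Mgll the monoacylglycerol. Plin2 coats droplets in most cells and Plin5 in tissues that burn fat, Fitm1 and Fitm2 are endoplasmic reticulum proteins needed for droplets to form, and Lpin1 makes diacylglycerol from phosphatidate on the way to triglyceride. In liver, fatty acids freed from droplets during a fast feed oxidation and ketone production, whereas resting muscle burns them itself.

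Each tissue, diet and mouse set had 8 libraries, 96 in all. Total counts per library, in units of 1e+06 counts, ran from 26.1 to 49.8 with a median of 36.1, so that 3 counts, taken as the floor of detection, correspond to 0.115 CPM or less (CPM, counts per 1e+06 counts of the library total); this floor covers counting error only. One cortex library went against its label. The library labelled male AL mouse 1 had 213.3 CPM of Xist, the RNA of the inactive X chromosome, and 0 counts of the Y-linked Ddx3y and Kdm5d. Across the other 47 libraries of mice 1-16, Xist stayed at 0.612 CPM or lower and Ddx3y at 25.1 CPM or higher, while in the 48 libraries of mice 25-40 Xist was at least 36.8 CPM and Ddx3y at most 0.0497 CPM. That cortex library was left out, which leaves 95 libraries and 7 AL mice in the cortex of mice 1-16. Tissue labels were borne out by defining genes: hepatocyte markers summed to at least 37770 CPM in every liver library, skeletal muscle fibre markers to at least 109700 CPM in every muscle library and neuron markers to at least 4923 CPM in every cortex library.

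On the GRCm39 build the members lie on 9 chromosomes, with Pnpla2 (ENSMUSG00000025509) at chr7:141035111-141040656, Lipe (ENSMUSG00000003123) at chr7:25078952-25098135, Mgll (ENSMUSG00000033174) at chr6:88701394-88805342, G0s2 (ENSMUSG00000009633) at chr1:192954469-192955525 and Abhd5 (ENSMUSG00000032540) at chr9:122180673-122210589. Plin2 (ENSMUSG00000028494) lies at chr4:86566623-86588297, Plin5 (ENSMUSG00000011305) at chr17:56418601-56424596, Fitm1 (ENSMUSG00000022215) at chr14:55813074-55814411, Fitm2 (ENSMUSG00000048486) at chr2:163308299-163314549 and Lpin1 (ENSMUSG00000020593) at chr12:16585670-16696967. No other gene of the table overlaps Pnpla2, Plin2, Plin5 or Lpin1. G0s2 lies inside the span of Lamb3 on the opposite strand, and Lipe, Abhd5, Fitm1 and Fitm2 each overlap an antisense long noncoding RNA, while Mgll overlaps the long noncoding RNA Gm26588 and 4 genes of the type TEC, which is not settled as coding or noncoding. The labels describe a directional library, but the strand setting used for counting is not given in the sources used here, so reads shared with an antisense partner cannot be told apart; in liver the largest mean among these partners was 16.4 CPM, for Gm26588 within Mgll in AL mice 25-40. In cortex the antisense partner of Lipe, 4732471J01Rik, was at a mean of 13.4 CPM in AL mice 1-16 against 12.1 CPM for Lipe, so that the cortex values of Lipe are uncertain. Those of G0s2 are uncertain as well, with Lamb3 at a mean of 2.37 CPM in the same cortices against 5.58 CPM for G0s2.

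In AL mice each tissue was led by a different member. Levels of different genes are compared here as RPKM, that is CPM divided by the summed exon length in kilobases. G0s2 was the highest member in liver, at a mean of 428 RPKM ± 140 (SD, n = 8) in AL mice 1-16 and 219.6 RPKM ± 76.1 (SD, n = 8) in AL mice 25-40. Fitm1 led in muscle, at 314 RPKM ± 45.8 (SD, n = 8) and 225 RPKM ± 36.6 (SD, n = 8), followed by Pnpla2 at 87.8 RPKM ± 9.31 and 87.1 RPKM ± 25.8 in the same groups. Cortex was led by Mgll, which degrades the endocannabinoid 2-arachidonoylglycerol in brain, at 51.4 RPKM ± 5.90 (SD, n = 7) and 57.9 RPKM ± 4.26 (SD, n = 8). Fitm1 was at or near the floor in cortex, with 0.217 CPM as its highest value among the 7 AL libraries of mice 1-16, and it did not pass the filter on low counts in the diet comparisons there.

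The order of levels differed between the tissues. In AL liver of mice 1-16, G0s2 was followed per length by Fitm1 (111 RPKM), Plin2 (62.5 RPKM), Mgll (24.0 RPKM), Pnpla2 (17.8 RPKM), Plin5 (15.1 RPKM), Fitm2 (8.09 RPKM), Lipe (4.47 RPKM), Abhd5 (1.99 RPKM) and Lpin1 (1.66 RPKM). Pnpla2 and Plin5, and likewise Abhd5 and Lpin1, differed by less than the larger of their SDs. In AL muscle of the same mice Fitm1 and Pnpla2 were followed by G0s2 (33.8 RPKM), Fitm2 (25.5 RPKM), Lpin1 (20.6 RPKM), Mgll (9.70 RPKM), Plin2 (8.79 RPKM), Plin5 (8.36 RPKM), Lipe (5.36 RPKM) and Abhd5 (2.41 RPKM), and the steps from G0s2 to Fitm2 and from Mgll over Plin2 and Plin5 to Lipe were smaller than the larger SD. Abhd5, the activator, was thus the lowest or next to lowest of the members in liver and the lowest in muscle, on the RPKM scale.

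**Figure D1:**
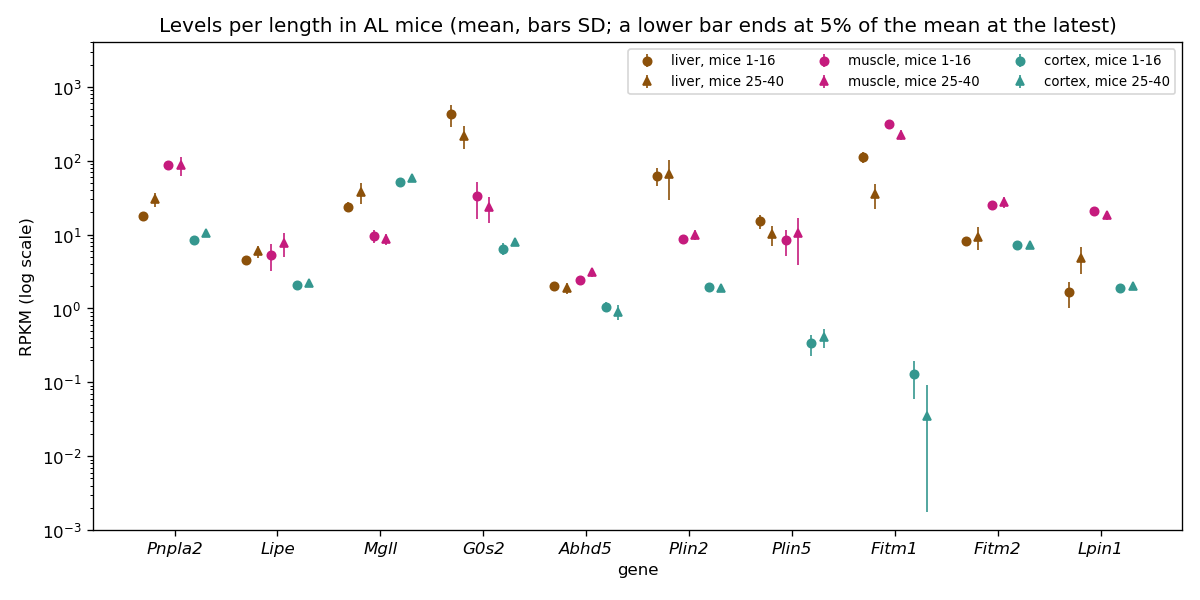
Mean RPKM (log scale, y axis) of each member (x axis) in AL mice; colour gives the tissue, circles mice 1-16, triangles mice 25-40, bars the SD over 7 or 8 libraries, and a lower bar that would reach below 5% of the mean ends there. G0s2 stands highest in liver (428 RPKM in mice 1-16), Fitm1 in muscle (314 RPKM) and Mgll in cortex (51.4 RPKM).

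Between tissues of the same AL mice, most members differed, as did most genes. A fit across all genes with the mouse as a block (edgeR's quasi-likelihood test, Benjamini-Hochberg adjusted p under 0.05, used throughout) called 10 of 10 members between liver and muscle, 9 of 9 between liver and cortex and 9 of 9 between muscle and cortex in mice 1-16, against 79.2%, 83.4% and 80.2% of all genes tested. Fitm1 is not counted against cortex, since it passed the filter of this fit only through the tissues where it is high. With library totals in place of TMM factors Lpin1 between liver and cortex of mice 1-16 went from a log2 difference of 0.60 (adjusted p = 0.00268) to -0.23 (adjusted p = 0.224), and Lipe between liver and muscle of mice 1-16 and Fitm2 between liver and cortex of both sets lost their calls, while Mgll between liver and cortex of mice 25-40 gained one. In mice 25-40 the fit called 9 of 10, 8 of 9 and 9 of 9, against 79.1%, 84.0% and 80.5%, and the uncalled differences were Plin5 between liver and muscle and Mgll between liver and cortex. Lpin1 in AL mice 1-16 was lower in liver than in muscle by a log2 difference of -3.91 ± 0.17 (SE, adjusted p = 5.89e-14), and in AL mice 25-40 by -2.24 ± 0.18 (adjusted p = 6.38e-10). G0s2 showed the opposite order, higher in liver than in muscle by 3.53 ± 0.26 on the log2 scale (adjusted p = 2.37e-10) and by 2.98 ± 0.25 (adjusted p = 9.47e-10) in the 2 sets.

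Fasting changed most members in the liver of mice 1-16. Of 10 members tested, 6 were higher in IF mice (Pnpla2, Mgll, Plin2, Plin5, Fitm2 and Lpin1) and 2 were lower (Abhd5 and Fitm1). Much of the liver transcriptome changed with them: 23.5% of 16204 genes tested were called higher and 21.1% lower, so that the share of members called is read against a total of 7234 called genes. This background depends on the setting. With library totals in place of TMM factors 4402 genes were higher and 2694 lower, and the erythrocyte covariate gave a lower total, printed in the closing section. The median log2 fold change of the members was 0.94, against 0.06 over all genes tested. In these bulk samples fewer cells of a type and less RNA per cell cannot be told apart.

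Among the lipases, Pnpla2 ranged in liver from 42.9 CPM over a median of 54.4 CPM to 65.7 CPM in the 8 AL mice 1-8, and from 113 CPM over a median of 148 CPM to 172 CPM in the 8 IF mice 9-16. Every IF liver lay above every AL liver, and the level rose 2.57-fold (log2 1.36 ± 0.11 SE, adjusted p = 4.92e-10). Mgll had its lowest, median and highest values at 96.8, 126 and 143 CPM in AL liver and at 179.9, 224 and 276.5 CPM in IF liver. Its groups did not overlap either, and the rise was 1.76-fold (log2 0.82 ± 0.10 SE, adjusted p = 8.04e-07). Lipe, from 23.2 over 25.6 to 30.65 CPM in AL and from 29.3 over 32.03 to 39.7 CPM in IF liver, overlapped between the diets, with 5 of 8 IF livers above the highest AL liver. Its log2 difference of 0.23 ± 0.10 did not pass the threshold (adjusted p = 0.0635).

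Of the regulators of Pnpla2, Abhd5 was called lower and G0s2 was not called. G0s2, the inhibitor, spanned 192 to 559.7 CPM with a median of 364 CPM in AL liver and 74.05 to 423 CPM with a median of 176 CPM in IF liver. The groups overlapped widely, 4 of 8 IF livers lay below the lowest AL liver, and IF mice 14 and 15 were above the AL median. Its log2 difference of -0.95 ± 0.37 missed the threshold narrowly (adjusted p = 0.0509) and passed it with other size factors (adjusted p = 0.0432) and in DESeq2 (adjusted p = 0.0214). Over the alternatives run its adjusted p ranged from 0.000881 to 0.274. The lowest came from replicate blocks, although AL and IF mice with the same replicate number are different animals. Abhd5, the activator, ranged from 9.39 over 11.9 to 14.1 CPM in AL liver and from 4.997 over 8.19 to 10.2 CPM in IF liver, with 7 of 8 IF livers below every AL liver. It fell by 0.63 ± 0.15 on the log2 scale (adjusted p = 0.0015).

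Both partners were also set against the lipase per length. The ratio of G0s2 to Pnpla2 RNA per length was 14.3 to 39.9 with a median of 21.2 in AL liver and 1.77 to 9.44 with a median of 4.47 in IF liver of mice 1-16. The ratio of Abhd5 to Pnpla2 ran from 0.0873 to 0.153 in AL and from 0.0148 to 0.0422 in IF liver. Neither ratio overlapped between the diets, and neither did that of Lipe to Pnpla2 (0.195 to 0.315 in AL and 0.0937 to 0.163 in IF liver), so that the separation is shared with a gene that was not called and is not particular to the partners; Pnpla2, the denominator of all 3, rose itself. In mice 25-40 the diets overlapped, with G0s2 to Pnpla2 at 4.47 to 11.3 in AL and 4.43 to 12.3 in IF liver and Abhd5 to Pnpla2 at 0.0429 to 0.086 and 0.0452 to 0.0643. The ratios carry no test, and the share of all genes whose ratio to Pnpla2 separates the diets in liver is not given here.

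RNA of both coat proteins was higher in IF liver. Plin2 had 155 CPM as its lowest, 204 CPM as its median and 309 CPM as its highest value in AL liver, and 359.6, 502 and 592 CPM in IF liver. No IF liver reached down to the AL range, and Plin2 rose 2.10-fold (log2 1.07 ± 0.16 SE, adjusted p = 7.15e-06). Plin5, which tethers mitochondria to droplets, ran from 20.0 over 31.6 to 38.8 CPM in AL and from 67.3 over 125 to 181 CPM in IF liver, without overlap. IF mice 9 to 12 had 107.7 CPM or less and IF mice 13 to 16 had 142.6 CPM or more, and the mean change was 3.64-fold (log2 1.86 ± 0.21 SE, adjusted p = 3.89e-07).

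The 2 droplet formation genes moved in opposite directions. Fitm2, the form found in most tissues, ranged from 28.2 over 31.5 to 37.45 CPM in AL liver and from 71.2 over 88.9 to 99.1 CPM in IF liver. With tight and separate groups it rose 2.58-fold (log2 1.37 ± 0.10 SE, adjusted p = 2.51e-10). Fitm1, known mainly from muscle, ranged from 72.15 over 109 to 128 CPM in AL and from 48.2 over 72.6 to 93.0 CPM in IF liver, and the groups overlapped although 4 of 8 IF livers lay below every AL liver. Fitm1 fell by 0.70 ± 0.14 on the log2 scale (adjusted p = 0.000367). In all, 5 members, Pnpla2, Mgll, Plin2, Plin5 and Fitm2, had AL and IF livers that did not overlap in CPM, against 14.6% of all genes tested.

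Lpin1 showed the largest log2 change of the 10 members in this comparison. It lay between 8.53 and 25.98 CPM with a median of 15.4 CPM in AL liver and between 22.3 and 362 CPM with a median of 137 CPM in IF liver. Of 8 IF livers, 7 were above every AL liver, and IF mouse 10, at 22.3 CPM, was within the AL range. The mean change was 9.41-fold (log2 3.23 ± 0.47 SE, adjusted p = 5.42e-05), and its spread among IF livers was the widest of any member relative to its mean, with a coefficient of variation of 66.4%.

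**Figure D2:**
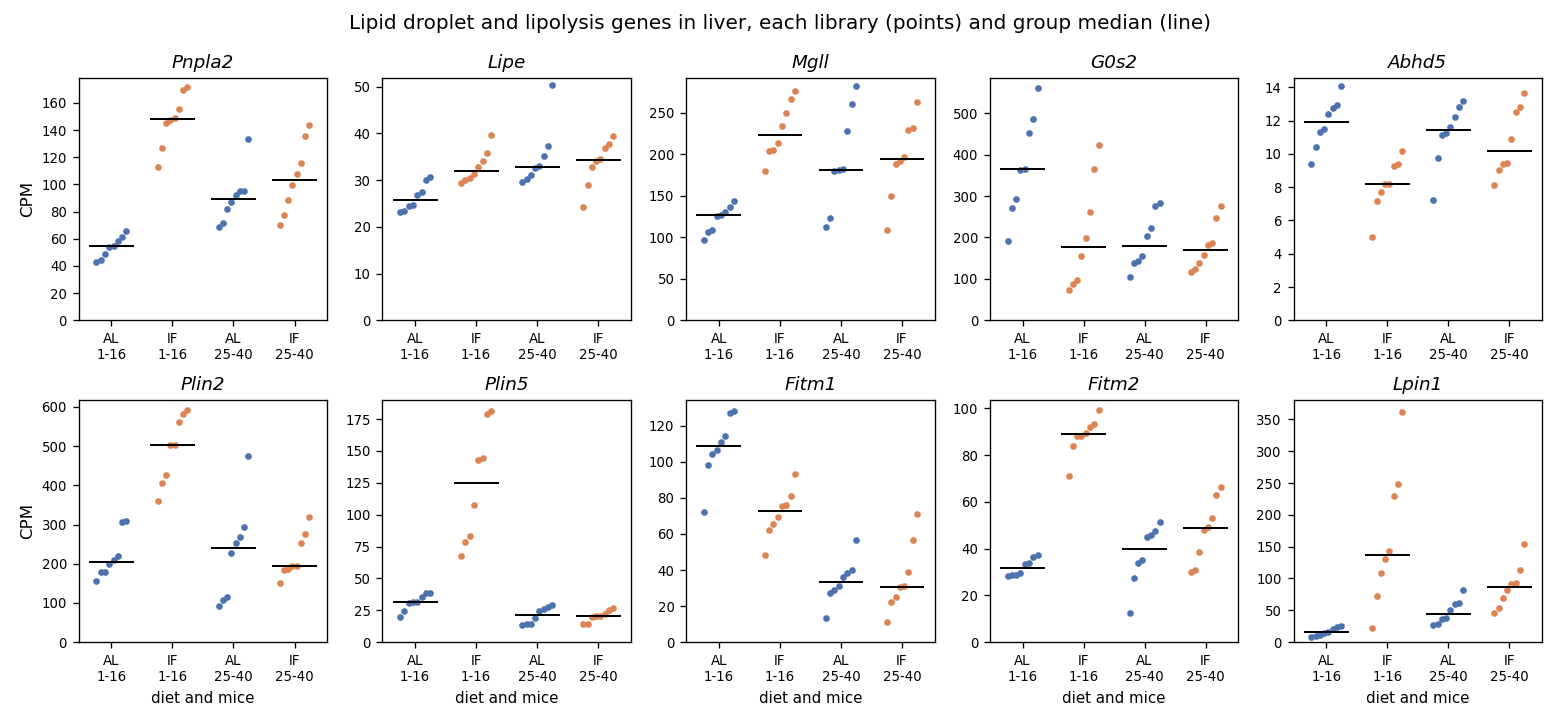
CPM (y axis, linear from 0) of each member in each liver library (points, sorted by value within a group) by diet and mouse set (x axis), with the group median as a line; 8 libraries per group. In mice 1-16 the IF points of Pnpla2, Mgll, Plin2, Plin5 and Fitm2 lie above all AL points, while in mice 25-40 the diets overlap for every member.

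Blood RNA and clock genes moved with diet in the same livers, where 23.5% of all genes tested were called higher and 21.1% lower. Of 5 erythrocyte markers, all measured above 0 in every library, 3 were called higher in IF liver of mice 1-16, and their summed level ran from 362 to 955.9 CPM with a median of 569 CPM in AL and from 667 to 6879 CPM with a median of 2070 CPM in IF livers; Hba-a1 was the most abundant, at means of 342 and 1184 CPM. IF mice 9, 10 and 16 were highest. Without these 3 libraries, a comparison chosen after seeing the data, no member gained or lost a call. Pnpla2 (log2 1.425), Plin5 (2.04), Fitm2 (1.42) and Lpin1 (3.61) had log2 changes at least as large as with all libraries. The changes of Mgll, Plin2, Abhd5 and Fitm1, also called, and the share of all genes called in that fit are not given here. G0s2 then had a log2 difference of -0.84 (adjusted p = 0.178). All 13 clock genes listed were called in this liver comparison, 9 higher and 4 lower. Per1 had means of 5.59 CPM in AL and 139 CPM in IF liver, and Bmal1 of 20.1 and 5.69 CPM; these 2 genes were named after their values were seen. The methods place the meals of IF mice in the light phase and their sampling at the end of a fast, so that hours since food and the position of the clock cannot be told apart here.

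Markers of other cells were looked at in the same livers, and their counts stand beside 23.5% of all genes tested called higher and 21.1% lower. In the liver of mice 1-16, 2 of 2 cholangiocyte markers were called higher, with summed medians of 4.53 CPM in AL and 12.5 CPM in IF liver, as were 1 of 3 stellate cell and fibroblast markers (66.3 and 102 CPM), 1 of 7 microglia and macrophage markers (134 and 169 CPM) and 0 of 3 endothelium markers (33.25 and 42.2 CPM); none of these was called lower. Of 8 white adipocyte markers 4 were tested and 2 called lower, Cfd and Adrb3, with summed medians of 90.0 CPM in AL and 42.7 CPM in IF liver, Adrb3 as the most abundant and Lep at 0 in all IF livers. Of 5 hepatocyte markers 1 was higher and 2 were lower, with summed medians of 50400 and 48240 CPM. The most abundant genes were Krt19 of the cholangiocyte, Dcn of the stellate cell, Clec4f of the macrophage, Pecam1 of the endothelium and Alb of the hepatocyte list. The part of these cells in the changes of the members was not tested.

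Livers of mice 25-40 gave no call for any member. With edgeR 0 of 15938 genes were called in either direction (0% higher and 0% lower), 919 had an unadjusted p under 0.05, and DESeq2 called 6, none of them a member. Lpin1 was the 1 member that had an unadjusted p under 0.05: it ranged from 26.4 over 44.3 to 82.5 CPM in AL and from 46.5 over 87.1 to 154.5 CPM in IF liver, with a log2 difference of 0.91 ± 0.25 (adjusted p = 0.785) and 5 of 8 IF livers above every AL liver. The other 9 members had log2 differences between -0.06 and 0.39, and their AL and IF livers overlapped. Plin5 is an example, from 13.5 over 21.7 to 29.1 CPM in AL and from 14.35 over 20.5 to 26.7 CPM in IF liver. AL mouse 26 had the lowest AL value of 6 members (Mgll, G0s2, Abhd5, Plin2, Fitm1 and Fitm2), and IF mouse 34 the lowest IF value of 7. The share of all genes lowest in these livers is not given here. In summed hepatocyte markers AL mouse 26 was the lowest of its group, at 42070 CPM, and IF mouse 34 the highest of its group, at 96500 CPM.

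The difference between the sets was itself tested. In liver the IF response of 7 of 10 members differed between mice 25-40 and mice 1-16, against 23.7% of 17658 genes. For Lpin1 the response of mice 25-40 was lower by a log2 difference of -2.29 (95% interval -3.31 to -1.27, adjusted p = 0.0016), and for Plin5 by -1.81 (-2.36 to -1.27, adjusted p = 8.69e-06). Pnpla2 (-1.07), Plin2 (-1.05), Fitm2 (-0.95) and Mgll (-0.71) also had smaller responses in mice 25-40, and Abhd5 a less negative one (0.65). No difference was called for Lipe, G0s2 and Fitm1, with intervals of -0.52 to 0.11, 0.06 to 1.79 and 0.09 to 1.61. In AL livers the CPM ranges of the sets did not overlap for 3 of 10 members, against 5.43% of 17658 genes: Pnpla2 lay at 42.9 to 65.7 CPM in AL mice 1-16 and 68.5 to 133 CPM in AL mice 25-40, Lpin1 at 8.53 to 25.98 CPM and 26.4 to 82.5 CPM, and Fitm1 at 72.15 to 128 CPM and 13.6 to 56.9 CPM. These levels were not tested.

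Members were also called in muscle of mice 1-16. Of 10 members, 5 were higher in IF mice (Pnpla2, Lipe, Mgll, Plin2 and Lpin1) and 2 were lower (G0s2 and Fitm1), against 11.5% of 15025 genes called higher and 11.6% lower. Median log2 fold changes were 0.21 for the members and 0.01 for all genes tested. No member separated the diets fully in CPM, while 4.17% of all genes tested did. Scaled by library totals in place of TMM factors, 2553 genes were higher and 1073 lower, against 1726 and 1737.

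Lipe had the largest change of the members in this muscle comparison without covariates; with the adipocyte covariate given below it was G0s2. It ranged from 20.8 over 27.8 to 53.9 CPM in AL and from 41.3 over 105 to 278.5 CPM in IF muscle, with 7 of 8 IF muscles above every AL muscle. Lipe rose 3.62-fold (log2 1.86 ± 0.35 SE, adjusted p = 0.00161). Pnpla2 ran from 241 over 262 to 328 CPM in AL and from 300.1 over 450.2 to 866 CPM in IF muscle, where again 7 of 8 IF values exceeded all AL values and IF mouse 12 stood far above the rest. Its rise was 1.69-fold (log2 0.76 ± 0.16 SE, adjusted p = 0.00288). Mgll, from 33.7 over 50.9 to 60.55 CPM in AL and from 43.5 over 83.0 to 178 CPM in IF muscle, had the same 7 IF mice above the AL range. It rose 1.79-fold (log2 0.84 ± 0.23 SE, adjusted p = 0.0147). The IF muscle not above the AL range was that of mouse 11 for Lipe, Pnpla2 and Mgll alike. Its adipocyte genes, those of the covariate given below, summed to 395.2 CPM, within the 159.8 to 680.2 CPM of AL muscle. The other IF muscles had 856.1 CPM or more of them.

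G0s2 was called lower in IF muscle. Its values ran from 12.1 over 30.1 to 60.7 CPM in AL and from 7.27 over 13.25 to 25.7 CPM in IF muscle, and it fell by 1.07 ± 0.33 on the log2 scale (adjusted p = 0.0313). The groups overlapped, with 3 of 8 IF muscles below every AL muscle, and with no filter beyond 1 count the call was lost (adjusted p = 0.061; 0.000193 to 0.0877 over all alternatives run). The ratio of G0s2 to Pnpla2 per length was 0.173 to 0.642 with a median of 0.39 in AL and 0.0841 to 0.148 with a median of 0.101 in IF muscle, so that the ratio separated the diets although neither gene did alone. Pnpla2, the denominator, lost its call with the adipocyte covariate given below. The share of all genes whose ratio to Pnpla2 separates the diets is not given here. The ratios of Abhd5 to Pnpla2, Lipe to Pnpla2 and G0s2 to Abhd5 overlapped in the same muscles, as did G0s2 to Pnpla2 in muscle of mice 25-40 (0.115 to 0.523 in AL and 0.183 to 0.539 in IF), and the ratios carry no test. Abhd5 had a log2 difference of 0.17 ± 0.11 (adjusted p = 0.27).

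Of the coat and formation genes in muscle, Plin2 was called higher and Fitm1 lower. Plin2 ranged from 24.9 over 30.7 to 36.3 CPM in AL and from 32.4 over 43.3 to 131 CPM in IF muscle, with 5 of 8 IF values above the AL range, and rose 1.73-fold (log2 0.79 ± 0.26 SE, adjusted p = 0.0386). This call was lost with no filter beyond 1 count (adjusted p = 0.0725), with replicate blocks (adjusted p = 0.104) and with 7 mice per group (adjusted p = 0.0753), and over all alternatives run its adjusted p ranged from 0.0118 to 0.504. Plin5 did not pass the threshold (log2 0.19 ± 0.24, adjusted p = 0.606), nor did Fitm2 (log2 0.09 ± 0.06, adjusted p = 0.329). Fitm1, the member with the highest RPKM in muscle, went from 231 over 314 to 377 CPM in AL to 189 over 248 to 290.0 CPM in IF muscle. It fell by 0.39 ± 0.10 on the log2 scale (adjusted p = 0.00598), with 2 of 8 IF values below all AL values. Lpin1 ran from 177 over 203 to 246 CPM in AL and from 212 over 243 to 317 CPM in IF muscle and rose 1.18-fold (log2 0.24 ± 0.07 SE, adjusted p = 0.0226).

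**Figure D3:**
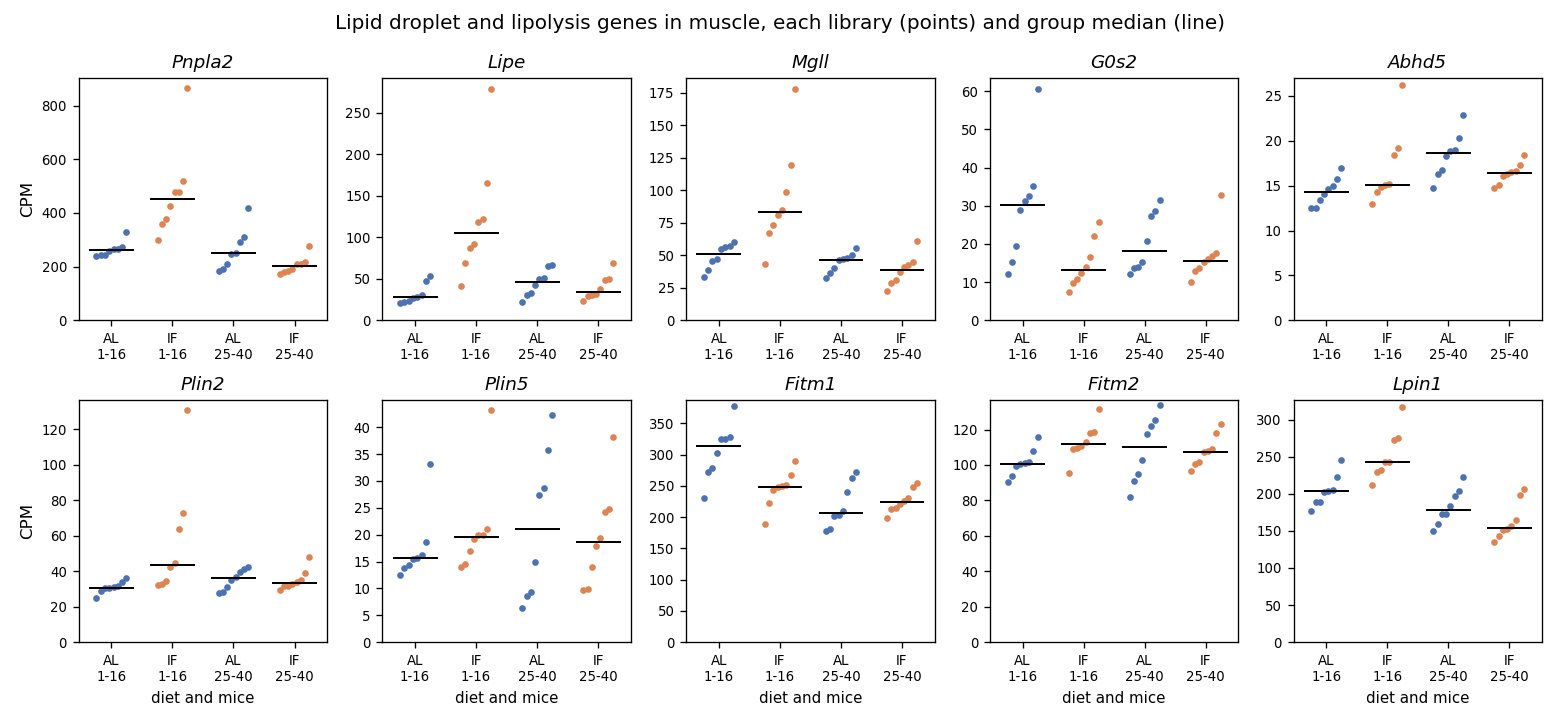
CPM (y axis, linear from 0) of each member in each muscle library (points, sorted by value within a group) by diet and mouse set (x axis), with the group median as a line; 8 libraries per group. Lipe in mice 1-16 runs from 20.8 to 53.9 CPM in AL and from 41.3 to 278.5 CPM in IF muscle, and the highest IF point of Pnpla2, Lipe, Mgll, Plin2 and Plin5 is mouse 12.

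Fat cell RNA moved with diet in the same muscles, where 11.5% of all genes tested were called higher and 11.6% lower. Adipocytes hold Pnpla2, Lipe, Mgll and G0s2 RNA at high levels. Of 8 white adipocyte markers tested, 7 were called higher in IF muscle of mice 1-16, with Lep as the exception, and none was at 0 in all libraries of a diet; their summed level was 167 to 756 CPM with a median of 321 CPM in AL and 422 to 3895 CPM with a median of 1565 CPM in IF muscle, with Fabp4 as the most abundant (means of 236 and 878 CPM). Of the 2 brown adipocyte markers, Ucp1 was at 0 in 7 of 8 AL muscles and 0.331 CPM in the last, and it reached 10.1, 12.6, 3.11, 51.8 and 2.50 CPM in IF mice 9 to 13 but stayed at 0.118 CPM or lower in IF mice 14 to 16. The summed brown markers ran up to 4.64 CPM in AL and up to 212.5 CPM in IF muscle, with Cidea as the most abundant. Of 8 skeletal muscle fibre markers 2 were lower, with summed medians of 125700 CPM in AL and 121800 CPM in IF muscle and Acta1 as the most abundant. Of the markers tested, 1 of 3 microglia and macrophage markers (summed medians of 17.1 CPM in AL and 12.5 CPM in IF, mostly Csf1r) and 1 of 2 stellate cell and fibroblast markers (254 and 219 CPM, mostly Dcn) were lower, and 0 of 3 endothelium markers (sums of 102.8 to 136.4 CPM in AL and 114.7 to 163.2 CPM in IF, mostly Cdh5) and 0 of 5 erythrocyte markers (summed medians of 346 and 437 CPM, mostly Hbb-bs) were called; Clec4f was at 0 in all IF muscles.

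With a score of 5 adipocyte genes as a covariate, Lipe (log2 0.89, adjusted p = 0.00367), G0s2 (-1.83, adjusted p = 0.000193), Fitm1 (-0.54, adjusted p = 0.00246) and Lpin1 (0.26, adjusted p = 0.0454) stayed past the threshold. The share of all genes called in this fit is not given here. Pnpla2 (log2 0.38, adjusted p = 0.0642), Mgll (0.28, adjusted p = 0.369) and Plin2 (0.31, adjusted p = 0.504) no longer passed. Leaving out the 5 muscles with Ucp1 above 1 CPM, a choice made after seeing the data that keeps 3 IF mice, gave log2 differences of 0.57 for Pnpla2 (adjusted p = 0.000466), 1.44 for Lipe (adjusted p = 0.0129) and 0.52 for Mgll (adjusted p = 0.0417). Plin2 then had a log2 difference of 0.18 (adjusted p = 0.253) and G0s2 of -1.365 (adjusted p = 0.0877). In the IF muscles kept, mice 14 to 16, the 5 adipocyte genes summed to 1157, 856.1 and 1722 CPM. AL muscles reached at most 680.2 CPM, so this comparison keeps a diet difference in fat cell RNA. Of the members called in muscle, Plin2 was the one that lost its call both with the covariate and without these 5 muscles. Without IF mouse 12 alone, also chosen after seeing the data, no member gained or lost a call. The log2 differences were then 0.59 for Pnpla2, 1.58 for Lipe and 0.51 for Plin2 (adjusted p = 0.0384). The part of fat cells in these changes was not tested beyond these values.

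Muscles of mice 25-40 showed no member call. Of 15308 genes, 1 passed, Rn18s-rs5, named here for its call, which is 0.00653% higher and 0% lower, while 1644 genes had an unadjusted p under 0.05 and DESeq2 called 91. Pnpla2 was the member nearest to the threshold, from 184 to 420.1 CPM in AL and from 172 to 278 CPM in IF muscle, with a log2 difference of -0.28 ± 0.14 (adjusted p = 0.478). Its groups overlapped and the sign was opposite to that in mice 1-16. The most uneven member was Plin5, from 6.42 to 42.3 CPM in AL and from 9.77 to 38.2 CPM in IF muscle, a spread within each diet far wider than the log2 difference of -0.06 ± 0.41. Between the sets, the muscle response differed for 4 of 10 members against 14.2% of 16346 genes: it was lower in mice 25-40 for Lipe (-1.95, 95% interval -2.77 to -1.13, adjusted p = 0.00215), Pnpla2 (-1.02, adjusted p = 0.00143) and Mgll (-0.97, adjusted p = 0.0146) and higher for Fitm1 (0.52, adjusted p = 0.0119). Of 8 white adipocyte markers, 7 of them higher in IF muscle of mice 1-16, 0 were called in muscle of mice 25-40, where their summed medians were 439 CPM in AL and 370 CPM in IF with Fabp4 as the most abundant; their part in these differences between the sets was not tested.

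In cortex, 1 member passed. Pnpla2 was at 22.4 over 25.5 to 28.8 CPM in the 7 AL mice of mice 1-16 that were used and at 26.65 over 35.2 to 47.05 CPM in the 8 IF mice. Of 8 IF values, 6 were above every AL value, and Pnpla2 rose 1.38-fold (log2 0.46 ± 0.09 SE, adjusted p = 0.00835), with a log2 difference of 0.41 (adjusted p = 0.0377) when the library that went against its label was kept. That is 1 higher and 0 lower of 9 members tested, against 3.79% and 3.43% of 18462 genes. This background of 1332 genes depends on the setting: it was 294 with the library of AL mouse 1 kept, 382 with replicate blocks, 498 with 7 mice per group and 2259 in DESeq2. Mgll, the most abundant member there per length, ran from 228 over 247 to 300.4 CPM in AL and from 267 over 289 to 359.7 CPM in IF cortex; its log2 difference of 0.21 ± 0.08 did not pass (adjusted p = 0.111). The remaining 7 members tested had log2 differences between -0.14 and 0.15, and no member had diets that did not overlap, against 1.01% of genes tested. Oligodendrocyte markers moved with diet in the same cortices: 2 of 3 were called higher, the list summed to medians of 4296 CPM in AL and 6306 CPM in IF cortex with Mbp as its most abundant gene, and 1 of 3 astrocyte markers and 1 of 3 endothelium markers were lower while 0 of 5 neuron markers and 0 of 5 microglia and macrophage markers tested were called. Their part in the change of Pnpla2 was not tested.

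Cortex of mice 25-40 had no member past the threshold. The fit called 0% of 18403 genes higher and 0.0109% lower, namely mt-Atp6 and Gm11263, which are given here because they were the 2 calls; 2069 genes had an unadjusted p under 0.05 and DESeq2 called 73. Pnpla2 ran from 27.4 over 31.98 to 35.1 CPM in AL and from 28.7 over 31.4 to 34.5 CPM in IF cortex, so that the AL cortex of mice 25-40 lay between the AL and IF medians of mice 1-16, a difference that was not tested. The response of Pnpla2 differed between the sets by -0.47 (95% interval -0.70 to -0.25, adjusted p = 0.0261), the only member among 9 tested, against 2.03% of 19547 genes.

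**Figure D4:**
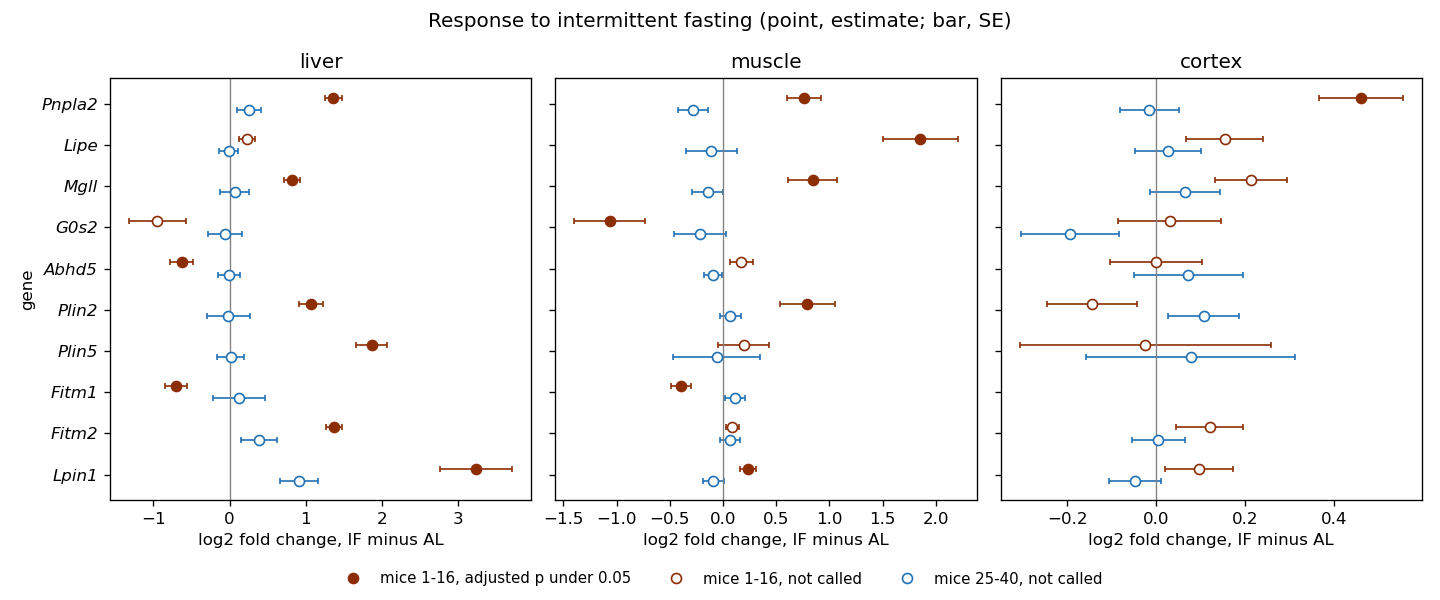
Log2 fold change of IF against AL (x axis, each tissue on its own scale) for each member (y axis), with bars of 1 SE; filled points passed an adjusted p of 0.05, red points are mice 1-16 and blue points mice 25-40, and Fitm1 was not tested in cortex. Lpin1 in liver (3.23) and Lipe in muscle (1.86) of mice 1-16 lie farthest to the right in their panels, and no blue point is filled.

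Whether the tissues answered differently was tested with the mouse as a block. In mice 1-16, liver and muscle differed in the IF response of 6 of 10 members, against 31% of 21608 genes, liver and cortex in 7 of 9 against 26.7%, and muscle and cortex in 1 of 9 against 3.80%; Fitm1, near the floor in cortex, is not counted there. Lpin1 answered more in liver than in muscle by a log2 difference of 2.79 (95% interval 2.06 to 3.51, adjusted p = 4.5e-07), and Plin5 (1.57), Fitm2 (1.24) and Pnpla2 (0.59) also had the larger response in liver. Lipe answered more in muscle, with liver minus muscle at -1.59 (-2.15 to -1.03, adjusted p = 5e-05), and muscle minus cortex at 1.65, the 1 call between these tissues. These differences carry no adipocyte covariate, with which the log2 change of Lipe in muscle went from 1.86 to 0.89, and the cortex values of Lipe are uncertain as said above. Abhd5 gave -0.84 (-1.19 to -0.50, adjusted p = 0.000356), with a fall in liver and no call in muscle. Mgll, Plin2, G0s2 and Fitm1 had responses in liver and muscle whose difference was not called, with intervals of -0.41 to 0.37, -0.13 to 0.86, -0.92 to 0.655 and -0.78 to 0.09. With the adipocyte covariate the muscle rises of Pnpla2, Mgll and Plin2 were smaller and the fall of G0s2 larger, as given above. In mice 25-40 no member counted in the same way differed between any pair of tissues, against 0.00470%, 0% and 0.00470% of 21292 genes; the single genes called were Rn18s-rs5 between liver and muscle and Rpl19-ps11 between muscle and cortex, given here for that call.

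Other genes of droplets and lipolysis are set beside all genes tested in the same liver comparison, of which 23.5% were higher and 21.1% lower. From lists of related genes, the liver of mice 1-16 had 4 higher and 2 lower of 12 tested droplet coat and formation genes, 7 higher and 3 lower of 14 triglyceride synthesis genes, 7 higher and 1 lower of 11 other lipases and lipolysis regulators and 1 higher and 6 lower of 13 lipolysis signalling genes. Their median log2 fold changes were 0.20, 0.35, 0.65 and -0.26, against 0.06 over all genes. Lpin2, the paralog of Lpin1 common in liver, went from a mean of 114 CPM to 711 CPM (log2 2.52 ± 0.17 SE, adjusted p = 7.74e-11), and Lpin3 from 12.1 to 8.18 CPM (log2 -0.66, adjusted p = 0.00438). Angptl4, an inhibitor of lipoprotein lipase, rose from 57.6 to 444 CPM (log2 2.83 ± 0.27 SE, adjusted p = 1.91e-07). Pnpla3, a relative of Pnpla2, fell from 1.03 to 0.158 CPM, the latter near the floor of detection (log2 -2.79, adjusted p = 0.00336). No list gene was called in the same direction in both mouse sets, so these were named after their values were seen.

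Of 10 transcription regulators tested in the liver of mice 1-16, 5 were higher, 3 lower and 2 not called, beside the same shares of all genes, with Ppara, the fatty acid sensor that drives fasting genes in liver, at means of 10.4 CPM in AL and 26.2 CPM in IF liver (log2 1.24 ± 0.16 SE, adjusted p = 8.67e-07) and Srebf1, a driver of fat synthesis, at 470.1 and 242.5 CPM (log2 -1.05 ± 0.25 SE, adjusted p = 0.00238). In muscle of mice 1-16 the same lists gave 6 higher and 1 lower of 12, 7 higher and 1 lower of 13, 6 higher and 0 lower of 9, 6 higher and 1 lower of 13 and 5 higher and 1 lower of 10, in the order droplet, synthesis, lipase, signalling and transcription lists, against 11.5% higher and 11.6% lower of all genes tested. Several of those higher in muscle, among them Plin1, Cidec and Adrb3, are also in the white adipocyte list. In cortex of mice 1-16, 1 of 11 droplet, 1 of 13 synthesis and 2 of 10 lipase genes tested were higher and none lower, and 0 of 14 signalling genes and 0 of 9 transcription regulators were called, against 3.79% higher and 3.43% lower of all genes tested, and in mice 25-40 none of the listed genes was called in any tissue by edgeR. Clock genes in mice 1-16 gave 6 higher and 5 lower of 13 in muscle and 4 higher and 2 lower of 13 in cortex, beside the same shares of all genes in each tissue.

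Genes whose levels ran most like those of the members over all 95 libraries, after removing the mean of each tissue and mouse set, are given as a description. The means of the diets were not removed, so that shared differences between AL and IF mice enter r. Over 14108 genes, Lpin1 was most like Nampt (Pearson r = 0.849) and Fbxo31 (r = 0.842), Pnpla2 like Aifm2 (r = 0.83), and Fitm2 like Decr1 (r = 0.85) and Hspa9 (r = 0.848). Lipe was most like Fah (r = 0.877) and Pde3b (r = 0.866), Plin2 like Coasy (r = 0.851) and Tmem120a (r = 0.834), and Plin5 like Mlycd (r = 0.788) and Nceh1 (r = 0.721). Mgll was most like Ephx2 (r = 0.744), Abhd5 like Ak3 (r = 0.682) and G0s2 like Cfl1 (r = 0.646). The libraries share mice across tissues within each set, and Fitm1 was not kept in all 3 tissues.

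Start regions are shown for 3 of the 6 members that rose together in liver, those whose window holds AGGTCA, the core letters bound by many nuclear receptors, or CACGTG, the E-box; these and the other letters below were searched on both strands in the 250 bases before and 50 after the start of the Ensembl canonical transcript. AGGTCA was found in 3 of the 10 windows (Abhd5, Plin2 and Plin5) and in 15.1% of 21770 protein-coding promoters of the same length, and CACGTG in 1 (Mgll) and in 7.81%; the window of Abhd5, which fell in liver, is not shown. TGACG was in 3 windows (G0s2, Abhd5 and Fitm1) and in 22.6% of promoters, and TGTTTAC in 1 (Mgll) and in 3.15%. A pair of AGGTCA copies with 1 base between them, TGACGTCA, which contains TGACG, and either TTATGTAA or TTACGTAA were in no member and in 0.0459%, 2.44% and 1.07% of promoters. Capitals mark AGGTCA or its reverse complement in Plin2 (chr4:86588410-86588709, minus strand) and Plin5 (chr17:56424494-56424793, minus strand) and CACGTG in Mgll (chr6:88701144-88701443, plus strand), all read 5′ to 3′ from the GRCm39 genome. Transcript starts are those of the GENCODE annotation, while the gene spans given above come with the counts; the transcript start is the edge of that span for 4 members and differs from it for 6, by 48 bases for Pnpla2, 52 for Abhd5, 162 for Plin2, 53 for Plin5, 82 for Fitm1 and 57196 for Lpin1. The windows of 3 members, Abhd5, Plin2 and Fitm1, lie wholly outside their spans. A match is a description of the letters in these windows.
Plin2: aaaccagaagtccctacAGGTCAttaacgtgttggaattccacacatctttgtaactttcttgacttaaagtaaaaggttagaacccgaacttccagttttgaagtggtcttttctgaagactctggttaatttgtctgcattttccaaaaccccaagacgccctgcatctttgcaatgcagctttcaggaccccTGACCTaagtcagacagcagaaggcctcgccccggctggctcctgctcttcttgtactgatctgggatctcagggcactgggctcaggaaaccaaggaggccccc
Plin5: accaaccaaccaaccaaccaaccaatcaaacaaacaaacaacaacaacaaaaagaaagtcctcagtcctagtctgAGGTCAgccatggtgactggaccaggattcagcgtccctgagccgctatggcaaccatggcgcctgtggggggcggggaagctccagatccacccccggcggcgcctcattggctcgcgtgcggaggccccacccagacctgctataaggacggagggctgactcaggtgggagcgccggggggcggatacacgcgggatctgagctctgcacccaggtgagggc
Mgll: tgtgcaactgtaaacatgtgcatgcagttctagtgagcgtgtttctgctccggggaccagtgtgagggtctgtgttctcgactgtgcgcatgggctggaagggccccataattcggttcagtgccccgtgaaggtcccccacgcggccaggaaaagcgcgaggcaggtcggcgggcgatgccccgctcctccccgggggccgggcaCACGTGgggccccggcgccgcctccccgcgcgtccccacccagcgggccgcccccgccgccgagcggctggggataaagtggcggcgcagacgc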

How the data were processed

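The authors deposited raw counts per gene for 96 poly-A libraries, with reads mapped to GRCm39 with HISAT2 per the study's methods and processing notes; the strand setting of the counting is not given in the sources used here. From these deposited counts, CPM and RPKM (CPM per kilobase of summed exons) were computed. Each diet comparison was fitted across all genes with edgeR 4.0.16 (R 4.3.3; TMM factors, filterByExpr with a least count of 10, robust quasi-likelihood test), and p was adjusted by Benjamini-Hochberg over all genes tested, with 0.05 as threshold. Differences between mouse sets were interaction terms, and those between tissues had the mouse as a block, since the label number was taken to name the mouse. DESeq2 1.42.0, RLE size factors, library totals, filters, covariates of erythrocyte and adipocyte genes, 7 mice per group and a replicate block were the alternatives. The cortex library of AL mouse 1 was left out because its Xist and Y-linked counts went against its label. The 10 members and the gene and marker lists were chosen with earlier results of these data known. The rule for naming other genes took at most 4 per list among those called in the same direction in both mouse sets; 0 qualified, and list genes named were chosen after their values were seen. Genes most like a member were the 2 with the highest Pearson r. Promoters were read from the GRCm39 genome. Intervals are 95% and the floor of 3 counts covers counting error only. Not every gene found by the measure of likeness is reported here.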

Additional observations from a re-analysis of the deposited data

Results flagged for a closer look

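In 10 of 116 groups of libraries a single library stood far from the others in a member's CPM. No chance rate is given for this, since groups of different members share libraries and are not independent. IF mouse 12 was such a library in muscle for Pnpla2 (866.3 CPM, next 517.8), Abhd5 (26.26 CPM, next 19.24), Plin2 (130.9 CPM, next 72.7) and Plin5 (43.16 CPM, next 21.14), and AL mouse 2 for Pnpla2 (327.6 CPM, next 274.6) and Plin5 (33.12 CPM, next 18.55). In mice 25-40 these were Pnpla2 in the liver of AL mouse 29 (133.2 CPM) and the muscle of IF mouse 36 (277.7 CPM), Lipe in the liver of AL mouse 26 (50.39 CPM) and G0s2 in the muscle of IF mouse 34 (32.86 CPM).

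The IF response differed between the mouse sets in 12 tests of the difference. As mice 25-40 minus mice 1-16 on the log2 scale, the liver gave -1.073 for Pnpla2, -0.7119 for Mgll, 0.6496 for Abhd5, -1.052 for Plin2, -1.811 for Plin5, -0.9491 for Fitm2 and -2.291 for Lpin1. Muscle gave -1.018 for Pnpla2, -1.948 for Lipe, -0.9669 for Mgll and 0.5233 for Fitm1, and cortex -0.4729 for Pnpla2.

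Between tissues of mice 1-16 the response differed in 14 tests. Liver minus muscle was 0.593 for Pnpla2, -1.587 for Lipe, -0.8433 for Abhd5, 1.568 for Plin5, 1.236 for Fitm2 and 2.788 for Lpin1. Liver minus cortex was 0.8876 for Pnpla2, 0.5503 for Mgll, -0.6888 for Abhd5, 1.234 for Plin2, 1.831 for Plin5, 1.225 for Fitm2 and 2.901 for Lpin1, and muscle minus cortex was 1.651 for Lipe.

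The cortex library labelled male AL mouse 1, which was used only in the alternative that keeps it, held 213.3 CPM of Xist.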

How the results depend on the processing

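Of 863 values for members under the alternatives, 838 kept their direction and side of the threshold or were uncalled throughout (32 uncalled values changed sign), 12 lost a call, 12 gained 1 and 1 reversed. That was Lpin1 between AL liver and cortex of mice 1-16, at -0.23 with library totals. Counts over all genes moved more. With unadjusted p, calls were 919 in liver and 1644 in muscle of mice 25-40, 5309 in muscle and 4400 in cortex of mice 1-16 and 2069 in cortex of mice 25-40, with 1 member in liver of mice 25-40 and 2 in cortex of mice 1-16. In liver of mice 1-16 they were 8322 genes and all 10 members, with Lipe and G0s2 added. DESeq2 called 6 genes in liver, 91 in muscle and 73 in cortex of mice 25-40 and 2259 in cortex of mice 1-16. Cortex of mice 1-16 gave 498 with 7 mice per group and 294 with AL mouse 1 kept. The erythrocyte covariate gave 4284 in liver of mice 1-16 and 0 in cortex of mice 25-40, where library totals gave 0 and leaving out IF mouse 36, chosen after seeing the data, 1. With the adipocyte covariate Pnpla2, Mgll and Plin2 lost their calls in muscle of mice 1-16. No filter gave 5 genes in muscle of mice 25-40. With at least 10 counts in every library, 2 members differed between muscle and cortex of mice 1-16, against 1, Lipe, in the main fit. The share of all genes called there with this filter is not given here. In mice 25-40 the same filter gave 4 genes between liver and muscle (2 with RLE) and 4 between liver and cortex. The cause was not tested. Replicate numbers of AL and IF mice did not pair (r from -0.262 to 0.457). The replicate block gave 382 genes in cortex of mice 1-16 and 0 in cortex of mice 25-40, Plin2 in muscle lost its call (adjusted p = 0.104), G0s2 in liver gained it (adjusted p = 0.000881), and no other member call changed.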
